A study of Mus musculus with 14 samples.

Results

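Hearts that lack Sqstm1 in cardiac muscle were compared with wild-type hearts at 15 months of age, in 8 of the 14 libraries of the series: 4 wild-type and 4 knockout whole hearts from untreated male C57BL/6 mice. All 55487 genes of the count table were considered, and 15528 of them had enough reads to be tested. In the knockout (Myh6-Cre-Sqstm1fl/fl), the loxP-flanked Sqstm1 alleles are recombined by Cre that is driven by the Myh6 promoter of cardiac muscle, so the other cells of the heart keep the gene. The labels do not say whether the wild-type mice carried Cre or the loxP-flanked alleles, and an effect of Cre itself was not tested. The other 6 libraries are 3 wild-type and 3 knockout hearts at 2 months. They enter no group mean at 15 months, but share the choice of genes tested, the scaling and the estimate of spread in the fit. They also enter the mean of all libraries used for the length slope described below. Nothing in the labels says how many animals gave a library or which exons are flanked. All p-values refer to the spread among the deposited libraries, which may be technical.

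Sqstm1 encodes p62, a scaffold protein that binds ubiquitin chains on cargo and the LC3 proteins of the forming autophagosome, and that is itself degraded by autophagy. It also binds Keap1, the adaptor that marks the transcription factor Nrf2 (gene Nfe2l2) for degradation by the proteasome, so that p62 can leave more Nrf2 free to enter the nucleus. Nrf2 pairs with small Maf proteins on antioxidant response elements and drives genes for glutathione use, NADPH supply, quinone reduction and thiol repair. Nrf2 protein and oxidative stress are both named in the title of the series, which places the comparison in that pathway. RNA counts do not measure protein.

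The 8 libraries held 21526968 to 30404416 counts, and 27.5% to 46.0% of these fell on mitochondrially encoded genes. Knockout replicate 1 had the highest mitochondrial share and, with wild-type replicate 2, stood apart on the first principal component, at -38.51 and -34.36 against -6.29 to 34.92 for the other 6. Those 2 libraries also had relatively more reads on short genes: their length slope, the change of a library's log2 CPM (counts scaled to a common library size) relative to the mean of all libraries per doubling of exon length, was -0.0916 and -0.0744, against 0.0469 to 0.2351 in the rest. The slope is computed from the same counts, so genotype changes in long or short genes also enter it. Cardiac muscle markers were high everywhere, with Myh6 at 8885 to 18370 CPM. The atrial light chain Myl7 ran from 0.04 to 58.1 CPM, and was high in 1 of 4 knockout libraries (58.1 in replicate 1) and in 3 of 4 wild-type libraries (39.7, 15.0 and 26.9 in replicates 1, 2 and 4). Over the 11 measured atrial markers, 4 were above 0 (median -0.40, and 0.09 without wild-type replicate 1), and the list level ran from 0.02 to 2.24 in wild type and from -0.26 to 1.91 in the knockout. Their part in the results was not tested.

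**Figure D1:**
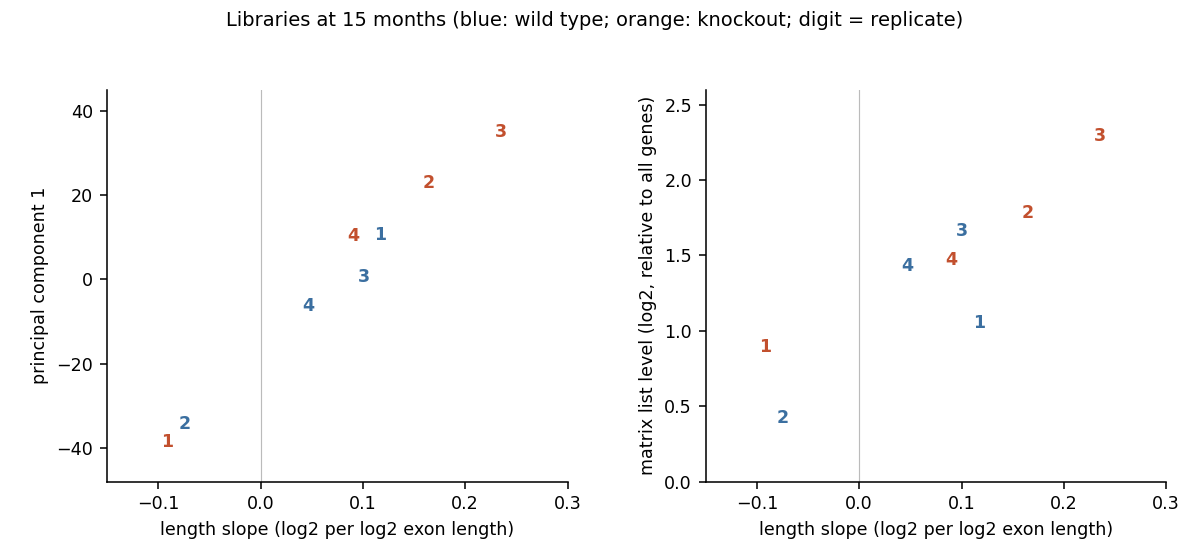
First principal component (left) and mean level of the 43 extracellular matrix genes (right, log2 relative to the mean of all genes tested) against the length slope of each library at 15 months. Digits are replicate numbers, blue for wild type and orange for knockout. Wild-type replicate 2 and knockout replicate 1 lie left of 0 on the horizontal axis and low on both vertical axes, and knockout replicate 3 lies farthest right and highest.

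Sqstm1 fell in the knockout, and was the 1 gene to pass an adjusted p of 0.05. The gene (ENSMUSG00000015837, chromosome 11, GRCm38) stood at 208, 186, 238 and 173 CPM in wild-type replicates 1 to 4. In knockout replicates 1 to 4 it stood at 14.6, 37.0, 16.2 and 17.6 CPM. The groups did not overlap, and knockout replicate 2 kept more transcript than the other 3 knockout hearts, 18.4% of the wild-type mean against 7.27% to 8.74%. The knockout mean was 10.6% of the wild-type mean, a log2 fold change of -3.23 (SE 0.26, 95% interval -3.80 to -2.67, edgeR quasi-likelihood adjusted p = 6.46e-05, and 0.0086 when the 8 libraries were fitted alone). An exact two-sided permutation test of 4 against 4 libraries gave p = 0.0286, the smallest it allows. In whole hearts, cells that keep the gene and reads from exons left in place cannot be told apart, so the remaining signal has no assigned source here.

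No other gene passed. The share called by edgeR was 0.00644% of the genes tested (1 of 15528), and the next adjusted p was 0.999. At an unadjusted p under 0.05 there were 616 genes, or 3.97%, with 283 higher and 333 lower in the knockout. All 4 knockout libraries lay above all 4 wild-type libraries in 118 genes (0.76%) and below them in 191 genes (1.23%). Random order separates 4 against 4 libraries, one way or the other, with a probability of 0.0286, the smallest p of the permutation test above. These shares lie below that value even when added, so separate groups alone do not mark a gene as changed. DESeq2 on the same counts called 7 of 15502 genes (0.0452%), and edgeR on the 8 libraries alone called 2 of 14607 (0.0137%). The genes described from here on therefore did not pass the edgeR test unless stated, and their values are given as measured.

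The precision of the comparison sets which sizes of change could have gone unseen. The 95% interval lay wholly within a 2-fold change in either direction for 11349 genes, 73.1% of those tested, and for 10979 of the 12601 genes with a mean of at least 1 CPM (87.1%). The median SE was 0.218 on the log2 scale over all genes and 0.188 over genes with at least 1 CPM. The median log2 fold change over all genes was 0.01, with 8019 genes above 0.

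**Figure D2:**
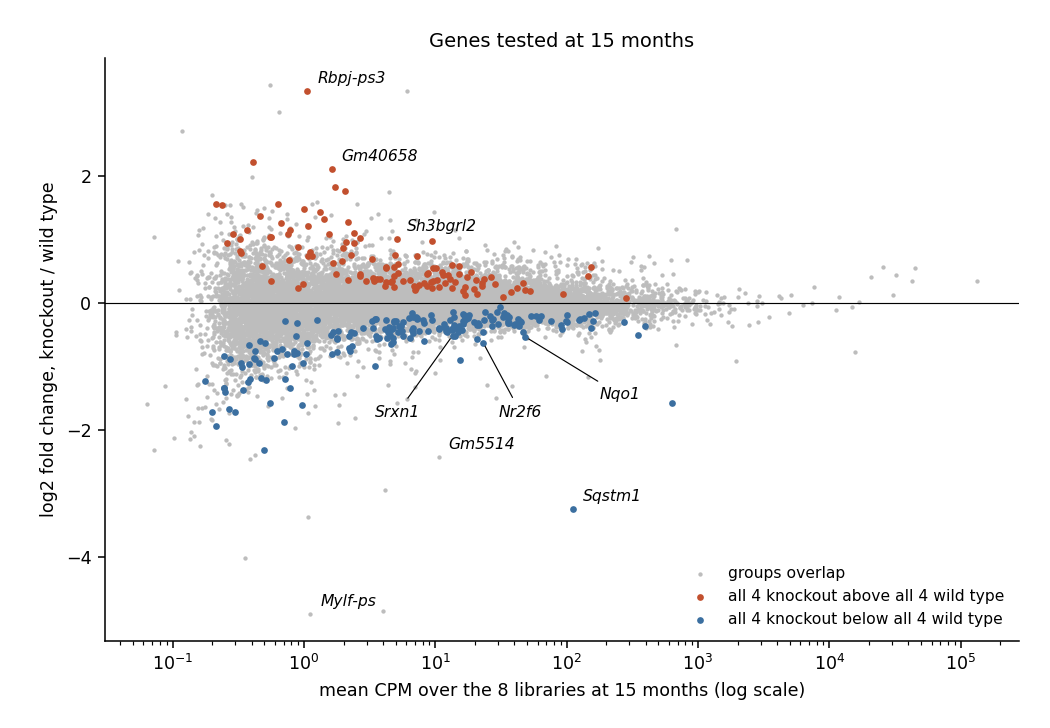
Log2 fold change (knockout against wild type, vertical axis) against mean CPM on a log scale for the 15528 genes tested. Orange points are the 118 genes whose 4 knockout libraries all lie above the 4 wild-type libraries, blue points the 191 genes with the reverse order and grey points genes whose groups overlap. Sqstm1 at -3.23 stands apart from the other genes of more than 100 CPM.

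Of the known targets of Nrf2 above 2 CPM, Srxn1 had the smallest p-value. Srxn1 encodes sulfiredoxin, which repairs over-oxidised peroxiredoxins. Its level was 13.7, 19.4, 15.3 and 15.2 CPM in wild-type replicates 1 to 4 and 11.4, 11.1, 11.6 and 10.6 CPM in knockout replicates 1 to 4. Every knockout library lay below every wild-type library, with a log2 fold change of -0.51 (SE 0.14, 95% interval -0.81 to -0.21, edgeR adjusted p = 0.999). The value at 2 months was -0.50 (SE 0.16), and the groups did not overlap there either. Over 18 other settings the Srxn1 value stayed between -0.57 and -0.40, and its adjusted p between 0.386 and 1.

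The start of Srxn1 is shown because it holds the letters of an antioxidant response element. In the RefSeq promoter table (GRCm38.p6), the 250 bases before the gene start, chr2:152105274-152105523 on the plus strand, contain TGAGTCAGC starting 45 bases before the start. The capitals mark that element.
Srxn1: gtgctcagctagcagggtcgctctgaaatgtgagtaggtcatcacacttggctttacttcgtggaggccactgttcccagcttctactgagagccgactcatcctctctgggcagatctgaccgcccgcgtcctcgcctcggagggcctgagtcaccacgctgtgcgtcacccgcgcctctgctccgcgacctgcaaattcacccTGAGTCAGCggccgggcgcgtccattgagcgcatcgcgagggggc
On either strand, TGAGTCAGC occurred in 114 of 32851 such windows (0.347%) and in 3 of the 31 Nrf2 target genes with a window, Gstp1, Osgin1 and Srxn1. Gstp1 and Osgin1 had log2 fold changes of -0.09 and -0.25. TGACTCAGC occurred in 0.39% of windows and in Prdx1 alone of the 31 genes, with a value of -0.20 at 15 months. The looser TGACNNNGC, which includes TGACTCAGC, occurred in 10.2% of windows and in 8 of the 31 genes. The 250 bases before Sqstm1 held none of the 3. A match is a description of letters and not of binding.

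Nqo1, the quinone reductase that is often read as a marker of Nrf2 activity, was also lower in all 4 knockout libraries than in the lowest wild-type library. It stood at 55.8, 64.3, 53.3 and 55.7 CPM in wild-type replicates 1 to 4 and at 40.1, 30.04, 39.7 and 48.9 CPM in knockout replicates 1 to 4. The log2 fold change was -0.53 (SE 0.19, 95% interval -0.94 to -0.12, edgeR adjusted p = 0.999) and that at 2 months was -0.43 (SE 0.22). Txnrd1, cytosolic thioredoxin reductase, and Gsta4, a glutathione transferase for lipid aldehydes, had values of -0.33 and -0.40 with overlapping groups. Gsta1 and Gsta2, near-identical copies whose reads the counting could share, were also without overlap, but at 1.12 and 0.83 CPM in wild type against 0.30 and 0.16 CPM in the knockout.

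Other targets of Nrf2 did not share that order. Of the 33 measured targets, 13 were above 0 and 20 below, with a median log2 fold change of -0.08 against 0.01 over all genes, and 0 passed the edgeR test. Gclm and Gclc, the subunits of glutamate-cysteine ligase, stood at 0.23 (95% interval -0.13 to 0.59) and 0.03 (-0.24 to 0.30). Hmox1, heme oxygenase 1, stood at 0.52 (-0.17 to 1.21) and Gsr, glutathione reductase, at -0.01 (-0.23 to 0.21). For 30 of the 33 the interval lay within a 2-fold change. The mean log2 level of the list relative to all genes was 1.29 to 1.42 in the wild-type libraries and 1.13 to 1.25 in the knockout libraries. This was the 1 list of 40 whose levels did not overlap. Random order separates a given list with a probability of 0.0286, the smallest p of the permutation test above. Among 40 lists, 1 with separate levels can therefore arise by chance. Without Gsta1 and Gsta2, a trim made after seeing the values, the levels spanned 1.57 to 1.68 (wild type) and 1.49 to 1.61 (knockout), which overlap.

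The genes that control Nrf2 showed no common direction. Nfe2l2 itself stood at 40.5, 29.5, 51.9 and 45.5 CPM in wild-type replicates 1 to 4 and 42.5, 73.6, 59.2 and 57.4 CPM in knockout replicates 1 to 4. The groups overlapped through knockout replicate 1, and the log2 fold change was 0.48 (95% interval -0.02 to 0.97). Keap1 ran from 34.2 to 48.4 CPM in wild type and from 34.1 to 43.1 CPM in the knockout, a value of -0.15 (95% interval -0.42 to 0.11). Mafg, a small Maf partner of Nrf2, stood at -0.41 (-0.74 to -0.09) with overlapping groups. Of 13 measured regulators, 5 were above 0 and 8 below.

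Antioxidant enzymes outside the Nrf2 list were mostly close to 0. Of 33 measured, 10 were above 0 and 23 below, the median was -0.08, and 0 passed. Nnt, the mitochondrial transhydrogenase that makes NADPH and that is partly deleted in the C57BL/6J substrain, had 13.4, 7.57, 8.12 and 10.4 CPM in wild type and 6.10, 6.71, 6.17 and 7.07 CPM in the knockout. Its groups did not overlap (log2 fold change -0.60, 95% interval -1.07 to -0.13), and the value at 2 months was 0.15. Prdx6, a peroxiredoxin, was without overlap at -0.27 (-0.55 to 0.00). Superoxide dismutases Sod1 and Sod2 stood at -0.02 (-0.30 to 0.27) and 0.01 (-0.24 to 0.26), and catalase (Cat) at 0.06 (-0.45 to 0.57).

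**Figure D3:**
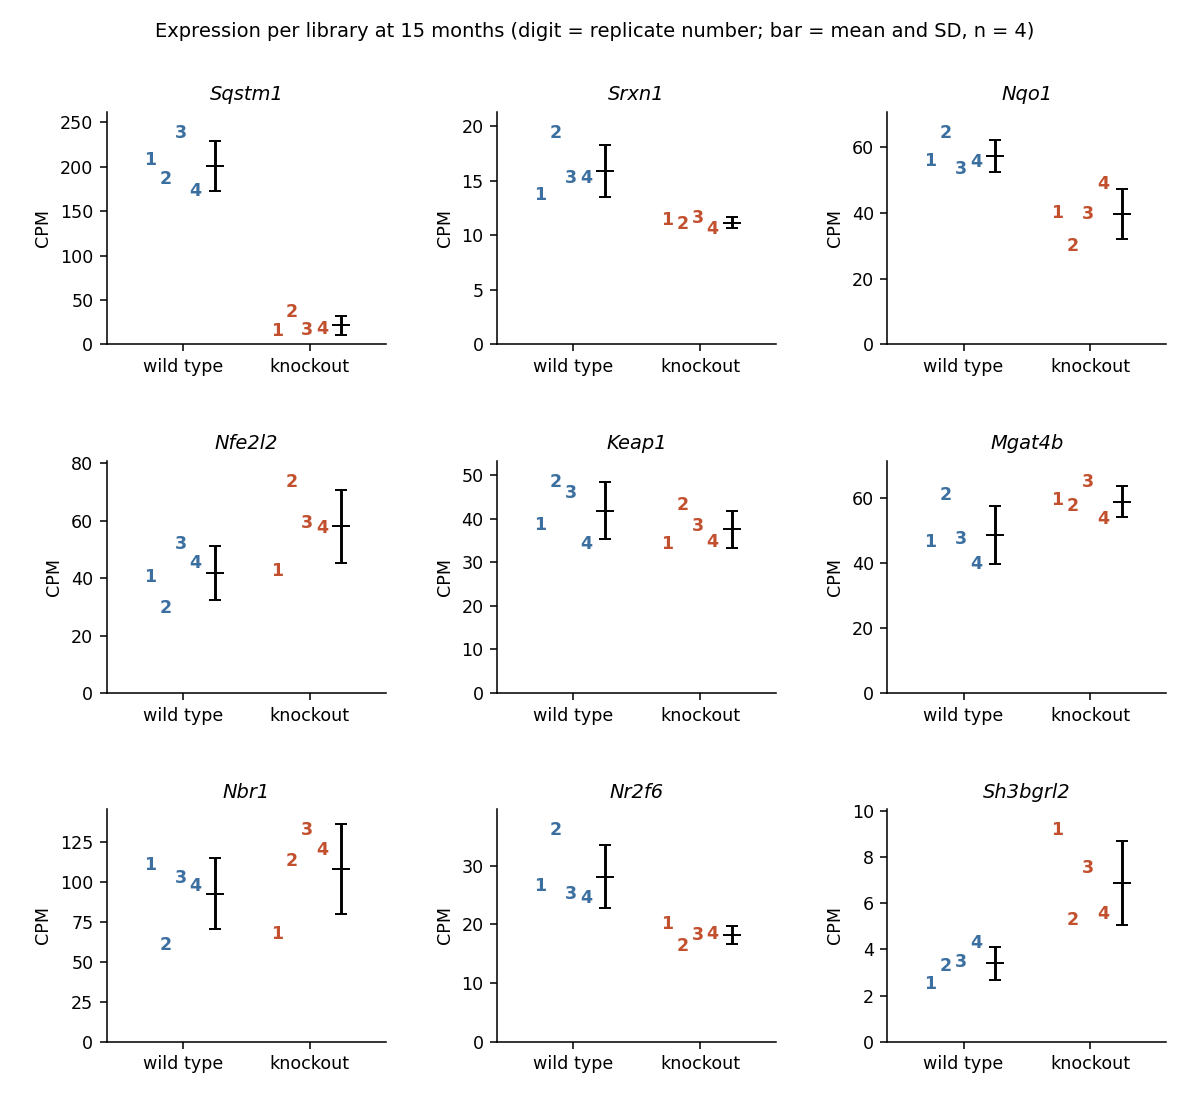
CPM of 9 genes in each of the 8 libraries at 15 months, with the vertical axis from 0. Digits are replicate numbers, blue for wild type and orange for knockout, and the bar beside each group is its mean and SD (n = 4). Sqstm1, Srxn1, Nqo1 and Nr2f6 lie lower and Sh3bgrl2 higher in all 4 knockout libraries, while Nfe2l2, Keap1, Mgat4b and Nbr1 overlap.

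Mgat4b, a glycosyltransferase gene that starts next to Sqstm1 on the opposite strand, was measured as the neighbour of the recombined locus. It stood at 46.5, 61.0, 47.6 and 39.6 CPM in wild type and 59.5, 57.5, 65.1 and 53.8 CPM in the knockout. The groups overlapped through wild-type replicate 2, with a log2 fold change of 0.28. At 2 months the groups did not overlap, with 41.8, 45.9 and 60.0 CPM in wild type and 82.5, 81.1 and 79.8 CPM in the knockout (0.72). The annotated gene bodies of Mgat4b and Sqstm1 do not overlap, and the strand setting of the counting is not given in the sources used here.

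Genes of autophagy did not separate the genotypes. Nbr1, the receptor most like p62, stood at 110, 60.2, 102 and 97.5 CPM in wild-type replicates 1 to 4 and 67.5, 113, 132 and 120 CPM in knockout replicates 1 to 4, a log2 fold change of 0.22 (95% interval -0.24 to 0.69). The lowest value of each genotype came from the library with a negative length slope. Of 18 autophagy receptors other than p62, 10 were above 0, the median was 0.02, and every interval lay within a 2-fold change. Optn, another ubiquitin-binding receptor, stood at -0.19 (-0.46 to 0.08) and Fkbp8, a receptor on mitochondria, at -0.22 (-0.51 to 0.07). In the core machinery, 17 of 39 genes were above 0, with a median of -0.03 and all 39 intervals within a 2-fold change. Map1lc3b, which encodes LC3B, stood at 151, 229, 156 and 154 CPM in wild type and 193, 140, 135 and 151 CPM in the knockout, and without wild-type replicate 2 its value moved from -0.15 to 0.01.

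Other parts of protein turnover were described by their lists. Lysosomal genes had a median of 0.04, with 24 of 39 above 0 and all 39 intervals within a 2-fold change. Proteasome subunits had a median of -0.14, with 8 of 39 above 0, and Psmd7 and Psmc1, parts of the regulatory particle, stood at -0.30 (95% interval -0.53 to -0.07) and -0.33 (-0.59 to -0.07). Chaperones had a median of -0.02 over 27 genes, and Hspbp1, a nucleotide exchange factor of Hsp70, was without overlap at -0.46 (-0.75 to -0.16). Muscle ubiquitin ligases and polyubiquitin genes had a median of -0.11 over 19 genes, with Trim54, a muscle RING finger protein of the sarcomere, at -0.38 (-0.65 to -0.12) and Ubb, a polyubiquitin gene, at 0.20 (-0.03 to 0.43). The proteasome list level was highest in wild-type replicate 2 (3.02 against 2.53 to 2.80 in the rest), and its median was -0.03 with the length slope as a covariate. None of these lists held a gene that passed.

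Nuclear genes of the respiratory chain leaned low by a small amount. Of 36 complex I genes 6 were above 0 (median -0.12), and of 40 genes of complexes II to V 9 were above 0 (median -0.12). These genes are short, with median exon lengths of 1644 and 1870 bases against 4113 over all genes tested, and their levels were highest in the libraries with negative length slopes, 5.10 and 5.09 for complex I in wild-type replicate 2 and knockout replicate 1 against 4.24 to 4.69 elsewhere. With the length slope as a covariate the medians were 0.01 and -0.05. Without knockout replicate 1 they were -0.35 and -0.34, but without wild-type replicate 2 they were 0.029 and -0.002. Without knockout replicate 3 they were -0.006 and -0.02. Ndufa2, a complex I subunit, stood at 78.0, 179, 76.5 and 83.3 CPM in wild type and 122, 52.4, 50.3 and 70.5 CPM in the knockout, and the groups overlapped through knockout replicate 1. Cyc1, cytochrome c1, had the same shape, with 484 CPM in wild-type replicate 2 and 451 in knockout replicate 1.

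Mitochondrially encoded mRNAs leaned the other way, with 10 of 13 above 0 and a median of 0.45. mt-Nd3, a complex I subunit gene, stood at 153, 80.2, 126 and 132 CPM in wild type and 225, 162, 154 and 185 CPM in the knockout, without overlap, at 0.56 (95% interval 0.17 to 0.96). The list level was 7.88 to 8.79 in wild type and 8.18 to 9.28 in the knockout, and the median was 0.13 when knockout replicate 1, where the mitochondrial share was highest, was left out. Only 5 of the 13 intervals lay within a 2-fold change. In bulk tissue, a different share of a cell type and a different amount of RNA per cell cannot be told apart for any of these lists.

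Fuel use was described by 3 lists, of which the fatty acid list leaned high. For fatty acid oxidation, 25 of 35 genes were above 0 (median 0.09). Pdk4, the kinase that holds back pyruvate dehydrogenase, stood at 462, 272, 714 and 236 CPM in wild type and 372, 534, 1773 and 1095 CPM in the knockout, with a 95% interval of the log2 fold change from 0.17 to 2.16. Angptl4, an inhibitor of lipoprotein lipase, stood at 7.99, 3.50, 7.28 and 2.32 CPM in wild type and 3.67, 4.80, 29.4 and 19.4 CPM in the knockout. Knockout replicates 3 and 4 were the highest of the 8 for both genes, and knockout replicates 1 and 2 lay within the wild-type range. Glycolysis and the TCA cycle had medians of 0.00 and -0.01 over 25 and 22 genes.

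Contractile genes differed little, and the stress genes varied widely within a genotype. The median over 25 sarcomere genes was -0.03, with 11 above 0. In the list of cardiac stress genes 7 of 16 were above 0 with a median of -0.10, which was 0.02 without wild-type replicate 1. Acta1, the skeletal actin that the stressed heart re-expresses, stood at 230, 134, 88.0 and 356 CPM in wild type and 73.8, 63.0, 104 and 120 CPM in the knockout, at -1.16 (95% interval -2.01 to -0.32). Nppa, atrial natriuretic peptide, ran from 0.65 to 127 CPM in wild type and from 4.59 to 31.0 CPM in the knockout, and its value of -1.49 became 0.06 without wild-type replicate 1. Uchl1, a deubiquitinase of the same list, stood at 3.79, 5.09, 2.21 and 4.90 CPM in wild type and 6.47, 5.95, 4.37 and 7.87 CPM in the knockout (0.62, 95% interval 0.11 to 1.13), with overlapping groups. Wild-type replicate 1 was also the highest of the wild-type hearts for Myl7. Jph2, the junctophilin that ties the T-tubule to the sarcoplasmic reticulum, was without overlap at 416, 546, 348 and 328 CPM in wild type and 291, 305, 294 and 266 CPM in the knockout (-0.50, 95% interval -0.87 to -0.14). Kcnh2, a repolarising potassium channel, stood at -0.27 (-0.51 to -0.03).

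Matrix, fibroblast and endothelial genes were higher on average in the knockout, and varied strongly between libraries. In the matrix list 40 of 43 genes were above 0 with a median of 0.56, in the fibroblast list 20 of 20 with 0.40, and in the endothelial list 23 of 24 with 0.38, and 0 of these genes passed. Mfap5, a microfibril glycoprotein, was the clearest member: 6.55, 7.04, 8.71 and 10.2 CPM in wild type against 11.5, 12.4, 12.4 and 11.6 CPM in the knockout (0.56, 95% interval 0.21 to 0.91). Loxl2, a collagen cross-linking enzyme, stood at 5.03, 2.32, 7.57 and 6.52 CPM in wild type and 3.61, 10.1, 18.5 and 9.51 CPM in the knockout. Dcn, the proteoglycan decorin, stood at 239, 198, 367 and 392 CPM against 361, 520, 467 and 380 CPM. Pecam1 and Sox18, endothelial genes, were at 0.56 (0.07 to 1.04) and 0.92 (0.14 to 1.70), with knockout replicate 3 highest and knockout replicate 1 within the wild-type range for both.

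The matrix values moved with the library properties given above. The matrix list level was 1.05, 0.42, 1.66 and 1.43 in wild-type replicates 1 to 4 and 0.89, 1.78, 2.29 and 1.47 in knockout replicates 1 to 4. It was lowest in the 2 libraries of negative length slope and highest in knockout replicate 3, whose slope was the largest. The median exon length of the list was 6370 bases. The length slope is computed from the same counts, so adjusting for it can also take out a genotype effect, which was not tested. With the length slope as a covariate the medians of the matrix, fibroblast and endothelial lists were 0.24, 0.18 and 0.15, and without the 2 negative-slope libraries they were 0.59, 0.40 and 0.46. Knockout replicate 3 moved them most downward, to 0.29, 0.25 and 0.18 when it was left out, and the matrix median was 0.37 without wild-type replicate 2. Only 6 of the 43 matrix intervals lay within a 2-fold change. At 2 months the medians of the 3 lists were -0.67, -0.54 and 0.09.

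Among immune and blood markers, macrophage genes had 18 of 24 above 0 with a median of 0.12, and their levels spanned -0.41 to 0.19 in wild type and -0.10 to 0.16 in the knockout. C1qb, a complement subunit made by macrophages, stood at 0.32 (95% interval 0.00 to 0.64), and B2m, the light chain of class I antigen presentation, at 0.57 (0.08 to 1.07). Of the 19 lymphoid markers only 8 were counted well enough to be tested, with 3 above 0 and 5 below. The immunoglobulin heavy chain gene Ighg2c stood at -1.10 (-1.98 to -0.22) with overlapping groups, and the light chain gene Igkc at 0.75 (-0.09 to 1.59) without overlap, at 0.71 to 1.03 CPM in wild type and 1.09 to 2.02 CPM in the knockout. Red cell genes had a median of 0.40 over 6 genes, with a list level of 0.09 in knockout replicate 1 against -2.18 to -0.63 elsewhere. That median was -0.20 without knockout replicate 1, -0.18 with limma voom and 0.03 with the replicate block. NF-kB and cytokine genes had a median of 0.19 over 23 genes, and interferon and antigen presentation genes 0.04 over 30.

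Cell cycle genes were among those with separate groups, at low levels. Top2a, the topoisomerase of dividing cells, stood at 0.90, 0.49, 0.97 and 1.62 CPM in wild type and 1.83, 2.50, 1.66 and 2.52 CPM in the knockout, at 1.09 (95% interval 0.40 to 1.78). Mki67, the proliferation marker, stood at 1.65, 0.77, 1.88 and 2.21 CPM in wild type and 2.27, 3.55, 4.30 and 2.48 CPM in the knockout, at 0.95 (0.32 to 1.58). Nusap1, a spindle protein, was the third without overlap, at 0.62 and 1.17 CPM on average. These are 3 of the 34 measured genes, beside 0.76% of all genes tested. Of 34 measured cell cycle genes, 28 were above 0 with a median of 0.30, and 0 passed. Without wild-type replicate 2 the median was 0.15. Cdkn2d, an inhibitor of the G1 cyclin-dependent kinases, lay without overlap on the lower side, at 7.37, 6.96, 5.75 and 6.78 CPM in wild type and 4.37, 4.66, 4.94 and 4.80 CPM in the knockout.

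**Figure D4:**
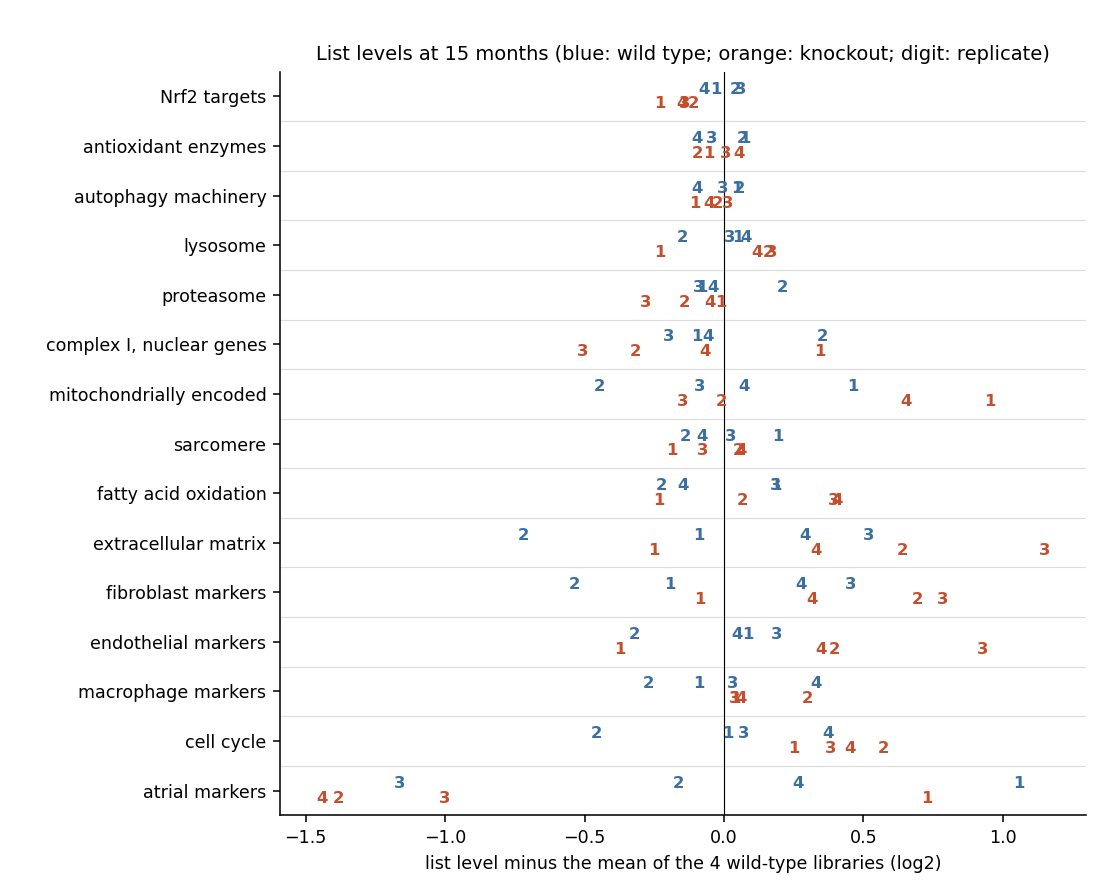
Mean log2 level of 15 gene lists in each library at 15 months, relative to all genes tested and drawn minus the mean of the 4 wild-type libraries. Digits are replicate numbers, blue for wild type and orange for knockout. The Nrf2 targets separate by 0.04 between the lowest wild-type library at 1.29 and the highest knockout library at 1.25, and the other 14 lists overlap. Without Gsta1 and Gsta2 the levels of the Nrf2 targets overlap too.

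Nr2f6 and Sh3bgrl2 were the protein-coding genes that DESeq2 called beside Sqstm1. Nr2f6, an orphan nuclear receptor, stood at 26.6, 36.1, 25.2 and 24.6 CPM in wild-type replicates 1 to 4 and 20.1, 16.3, 18.3 and 18.3 CPM in knockout replicates 1 to 4. Its log2 fold change was -0.62 (SE 0.13, 95% interval -0.91 to -0.34), with an adjusted p of 0.999 in edgeR and 0.0361 in DESeq2, and from 0.0361 to 1 over 18 other settings. Sh3bgrl2, a small protein of the thioredoxin fold, stood at 2.52, 3.30, 3.48 and 4.28 CPM in wild type and 9.17, 5.28, 7.56 and 5.55 CPM in the knockout (1.02, SE 0.22, 95% interval 0.54 to 1.49). Its adjusted p was also 0.999 in edgeR and 0.0361 in DESeq2, with the same range over the settings. Its relative Sh3bgrl3 was without overlap in the same order, at 9.51, 8.02, 10.5 and 10.7 CPM against 13.1, 15.2, 13.2 and 11.3 CPM. At 2 months Nr2f6 and Sh3bgrl2 stood at -0.06 (SE 0.15) and -0.33 (SE 0.26).

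The other 4 genes called by DESeq2 were a long non-coding RNA and 3 processed pseudogenes. Gm40658, the long non-coding RNA, ran from 0.37 to 0.91 CPM in wild type and from 1.39 to 3.67 CPM in the knockout (DESeq2 adjusted p = 0.00518, the lowest of a range up to 1 over the settings). Rbpj-ps3, a copy of the Notch effector gene Rbpj, ran from 0.07 to 0.29 CPM in wild type and from 1.68 to 2.19 CPM in the knockout, and was also called by edgeR on the 8 libraries alone (adjusted p = 0.0225, in a range up to 1). Its order was not the same at 2 months, with 3.88, 2.92 and 1.24 CPM in wild type and 0.20, 2.75 and 0.08 CPM in the knockout, and Rbpj itself overlapped at 25.6 to 36.2 against 21.7 to 29.2 CPM. Reads of such copies can be shared with their parent gene, and the handling of multiply mapping reads is not given in the sources used here.

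The DESeq2 calls of the pseudogenes Gm5514 and Mylf-ps (adjusted p = 0.0169 and 0.0252, and up to 1 in other settings) rested on 2 wild-type hearts. Gm5514 stood at 32.3 and 31.2 CPM in wild-type replicates 1 and 4 and at 3.07 to 4.31 CPM in the other 6 libraries. Mylf-ps stood at 4.31 and 4.09 CPM in the same 2 hearts and at no more than 0.24 CPM elsewhere. Gcnt1, a glycosyltransferase gene on chromosome 19 like Gm5514, and the pseudogene Gm8116 on chromosome 9 were chosen after their values were seen and had the same order, with Gcnt1 at 15.7 and 12.4 CPM in those hearts and 3.17 to 4.87 CPM elsewhere. The groups overlapped for all 4 genes. Nnt, described above, was also highest in those 2 hearts (13.4 and 10.4 CPM). The labels give no substrain, and a difference of genetic background between the hearts was not tested.

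The remaining protein-coding genes with separate groups and the smallest p-values covered many functions. Lower in the knockout were Smg5, a factor of nonsense-mediated decay, at 61.6, 59.6, 43.4 and 51.7 against 37.5, 39.1, 41.8 and 40.0 CPM, and Gcat, which breaks down threonine to glycine, at 2.41, 3.58, 2.24 and 3.02 against 1.73, 1.70, 1.42 and 1.85 CPM. Epdr1, an ependymin-related glycoprotein, stood at 17.4, 17.2, 19.2 and 18.7 against 14.4, 13.04, 13.6 and 13.3 CPM, and had the smallest SE of the 10 lower genes named by rule. Tmem205, Pheta1 and Insyn1 stood at -0.89, -0.64 and -0.56. Higher in the knockout was Hdac1, a histone deacetylase, at 11.1, 9.85, 12.2 and 11.6 against 13.9, 14.6, 13.4 and 16.8 CPM. Dbh, which makes noradrenaline from dopamine, stood at 1.48, 1.14, 1.20 and 1.14 against 6.04, 1.67, 1.81 and 2.82 CPM, and knockout replicate 1 was the highest. Rerg, a Ras-like protein, Scube1, a secreted EGF-repeat protein, and Cd24a, a surface glycoprotein, stood at 0.86, 1.04 and 0.76.

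Most of the 309 genes with separate groups differed by less than 2-fold. The median log2 fold change was 0.46 over the 118 higher genes and -0.40 over the 191 lower genes, and 26 and 22 of them reached a 2-fold change, as did 265 of all 15528 genes. The median size of the change over all genes, without sign, was 0.15. Larger values are built into a set chosen for separate groups. Their median exon lengths were 4027 and 3292 bases, against 4113 over all genes. Protein-coding genes made up 104 of the higher and 165 of the lower genes. Rapamycin-sensitive growth signalling had Akt1s1, an inhibitor subunit of mTORC1, among the lower genes, at 38.9, 47.1, 40.4 and 33.4 against 32.3, 32.8, 33.2 and 30.3 CPM, while the median of 24 genes of that list was -0.01.

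The effects at 15 months were set beside those at 2 months, where 4.43% of genes lay without overlap on the higher side and 3.72% on the lower side. Those shares rest on 3 against 3 libraries, where separate groups arise by chance more often than with 4 against 4. They cannot be compared with the 0.76% and 1.23% at 15 months. Tested for a change of the knockout effect between the ages, 0 genes were called by edgeR and 0 by limma voom, with 574 genes at an unadjusted p under 0.05, and DESeq2 called 1, Epn3. Of the 191 genes lower without overlap at 15 months, 11 (5.76%) were lower without overlap at 2 months, which is 1.91% of the 577 such genes there, and 13 (6.81%) were higher without overlap, 1.89% of 688. Of the 118 genes higher at 15 months, 2 (1.69%) were higher without overlap and 8 (6.78%) lower at 2 months, 0.29% of 688 and 1.39% of 577. Over all 309 genes, 46.0% had the same sign at 2 months, against 51.0% of all genes tested.

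The 11 genes lower without overlap at both ages were Sqstm1, Srxn1, Epdr1, Insyn1, Cnn1, Mecr, Cds1, Zfp444, Shisal1, F8a and 9330136K24Rik, and the 2 higher were Ajm1 and Gm45705. Apart from Sqstm1, Srxn1, Epdr1 and Insyn1, these names were taken after their values were seen. Epdr1 stood at -0.42 (SE 0.11) at 15 months and -0.50 (SE 0.13) at 2 months, and Insyn1 at -0.56 (SE 0.17) and -0.35 (SE 0.19). Mecr, a reductase of mitochondrial fatty acid synthesis, stood at -0.26 and -0.19, and Cds1, a CDP-diacylglycerol synthase, at -0.39 and -0.60. Sqstm1 itself stood at -3.23 and -3.30, with a difference of 0.07 (SE 0.37). For Mfap5 the values were 0.56 (SE 0.17) and -0.54 (SE 0.19).

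**Figure D5:**
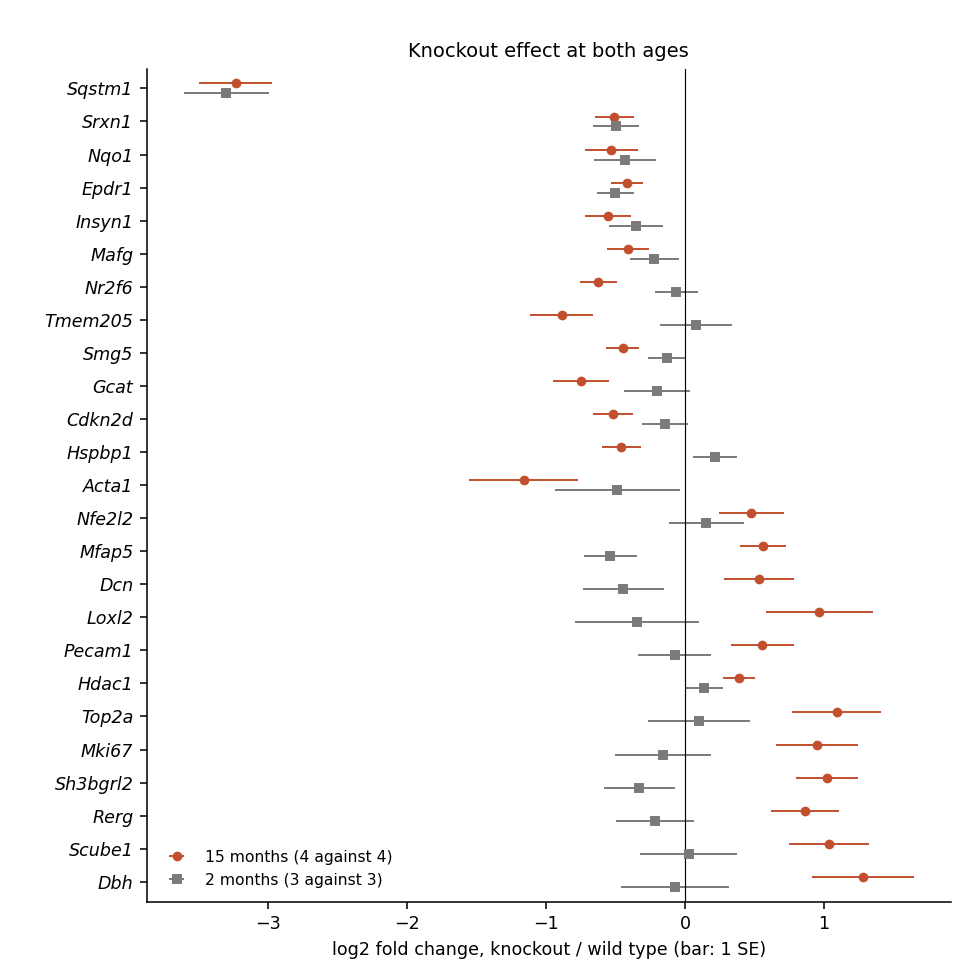
Log2 fold change, knockout against wild type, of 25 named genes at 15 months (orange circles, 4 against 4 libraries) and at 2 months (grey squares, 3 against 3), with bars of 1 SE. Sqstm1, Srxn1, Nqo1, Epdr1 and Insyn1 lie left of 0 at both ages, and Mfap5, Dcn and Loxl2 lie right of 0 at 15 months and left of it at 2 months.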

How the data were processed

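Libraries were prepared from whole-heart total RNA after ribosomal RNA depletion with a strand-specific kit, per the labels. Unnormalized counts of reads per gene were deposited by the authors, made with cutadapt 1.16, STAR 2.7.3a and featureCounts 1.6.3 on GRCm38 (DESeq2 1.26.0 is also named), per the submitters' processing notes. How featureCounts treated strand and multiply mapping reads, and with which annotation, is not given in the sources used here. Symbols, positions and exon lengths came from GENCODE M21 (55227 of 55487 identifiers).

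The test was edgeR 4.0.16's quasi-likelihood F-test (R 4.3.3): filterByExpr (minimum count 10, minimum total 15), TMM scaling and a robust quasi-likelihood fit to all 14 libraries with 1 mean per group, with Benjamini-Hochberg adjustment over 15528 genes and a threshold of 0.05. The SE is the log2 fold change divided by the square root of F, and the 95% interval is per gene and not adjusted. Levels are TMM-scaled CPM. List levels are means of log2(CPM + 0.1) relative to all genes tested. Sqstm1 was also tested by permutation with scipy 1.17.1. The fit was tested on simulated data.

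The members and the 40 gene lists (977 entries, 46 not tested) were chosen with earlier results of these data known, so no list was tested. Genes were named by rule: Sqstm1, 6 genes of Nrf2 and autophagy, the 10 higher and 10 lower protein-coding genes of smallest p with a mean of at least 1 CPM and no overlap, genes called by any tool, and 2 members of each list. Alternatives were DESeq2 1.42.0, limma 3.58.1 voom, other scaling and filters, the 8 libraries alone, a replicate block and leaving out each library. A fit with the length slope and one without its 2 negative libraries were added after seeing the data. No 2 libraries were repeats: chi-square per degree of freedom was at least 23.2 over 28 pairs. Precision depends on the spread among libraries as well as on their counts. The intervals, like the p-values, refer to the spread among the deposited libraries. They do not cover an effect of library preparation shared by a whole group.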

Additional observations from a re-analysis of the deposited data

Results flagged for a closer look

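In each group of 4 libraries at 15 months, the highest or lowest library was flagged where its gap to the nearest other one was over Dixon's 95% critical share of the group's range. Of 280 groups examined, 16 were flagged. Chance flags about 1 in 20 of independent groups, and the share flagged was near that. These groups share the same libraries and are not independent, so that rate cannot tell whether the flags arose by chance. Wild-type replicate 2 gave 8 of the 16, knockout replicates 1 and 2 gave 3 each, and wild-type replicates 3 and 4 gave 1 each.

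Wild-type replicate 2 was far above its group for Pheta1 (7.122 CPM), Atg4d, a protease that processes LC3 (52.99 CPM), Cyc1 (484.3 CPM), Ndufb11 (248.3 CPM), Ndufa2 (179.3 CPM) and Map1lc3b (228.5 CPM). It was also far above for the list levels of the proteasome (3.02) and of respiratory complexes II to V (6.22). Knockout replicate 1 was far above its group for Atg4d (37.59 CPM) and far below it for the list levels of the lysosome (2.07) and of muscle ubiquitin ligases (3.26). These are the 2 libraries of negative length slope.

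Knockout replicate 2 was far above its group for Sqstm1 (36.99 CPM), for Hlf, a circadian output transcription factor (57.61 CPM), and for the macrophage list level (0.16). Wild-type replicate 3 was far above for Klf4, an immediate early transcription factor (26.73 CPM). Wild-type replicate 4 was far above for Cfd, the fat cell gene adipsin (4.202 CPM).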

How the results depend on the processing

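Sqstm1 passed under all 18 alternatives run for it, from -3.64 (without knockout replicate 2) to -3.09 (without knockout replicate 1). The count of genes called was 7 with DESeq2, 2 with the 8 libraries alone and 2 without both negative-slope libraries, an alternative chosen after seeing the data, where the second was the snoRNA gene Gm22486 (-2.30). Leaving out each library in turn gave 1 to 3 genes, with 3 (Sqstm1, Gm22486 and the snRNA gene Gm24265) without knockout replicate 1. The difference between the effects at 15 and 2 months called 1 gene with DESeq2. Of the 100 named genes, 98 kept their sign in every alternative that gave a value. Nppa (-1.49) was 0.056 without wild-type replicate 1, with -2.07 to 0.056 over the libraries left out, and Map1lc3b (-0.15) was 0.012 without wild-type replicate 2, with -0.28 to 0.012. The cause was not tested. The median of 20 of the 40 lists changed sign in at least 1 alternative.

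No pairing by replicate number was detected: same-numbered deviations correlated from -0.441 to 0.231 over 4 pairs, and 1 pair of 4 correlated best with its own number. So few pairs cannot show that the numbers carry no pairing. The replicate block called 1 gene, with Sqstm1 at -3.34. Depth limits genes under 1 CPM most, and 4 libraries a group limit small changes.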

Other observations

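A list of 18 genes known from platelets was drawn up after their values were seen. Of the 17 tested, 16 were highest in knockout replicate 1 among the 8 libraries at 15 months. Over all genes tested the share was 18.3%. A list drawn up from seen values can favour that library, so the shares cannot be set against each other. In these 17 the level of knockout replicate 1 was 0.269 to 5.59 times that of the highest other library at 15 months, with a median of 2.67. P2ry12, the platelet ADP receptor, stood at 1.21, 1.42, 2.37 and 2.21 CPM in wild-type replicates 1 to 4 and 11.2, 2.78, 1.81 and 2.78 CPM in knockout replicates 1 to 4. Ppbp, a platelet chemokine, stood at 24.6 CPM in knockout replicate 1 and 2.79 to 6.86 CPM in the other libraries at 15 months. In replicates 1 to 3 at 2 months Ppbp stood at 18.9, 12.8 and 1.89 CPM in wild type and 3.435, 17.4 and 2.87 CPM in the knockout. Selp, P-selectin, which endothelium also makes, was the exception and was highest in wild-type replicate 3. Knockout replicate 1 also had the highest red cell list level (0.09). Tubb1, the platelet tubulin, F5, coagulation factor V, and Gp6, the platelet collagen receptor, were among the 118 genes higher without overlap (0.76% of genes tested). Their log2 fold changes were 1.83, 1.77 and 1.56, and each includes knockout replicate 1, at 5.555, 6.311 and 2.427 CPM. In knockout replicates 2 to 4 Gp6 stood at 0.452, 0.4515 and 0.5048 CPM, barely above the highest wild-type library (0.4479 CPM in replicate 1). In the same libraries Tubb1 stood at 2.468, 1.415 and 1.262 CPM, against at most 1.139 CPM in wild type. F5 stood there at 2.364, 2.348 and 1.725 CPM, against at most 1.437 CPM in wild type.

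Mesothelial markers had 3 of 8 genes above 0 and a median of -0.75, with a list level of -2.15 in wild-type replicate 3 against -3.88 to -3.08 in the rest. The median was 0.31 without that library, 0.70 over the members with a mean of at least 1 CPM and -0.01 when the 8 libraries were fitted alone. Muc16, a mucin of the mesothelium chosen after its values were seen, stood at 9.13 CPM in wild-type replicate 3 and 0.04 to 2.37 CPM elsewhere.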
